A study of Bos taurus with 8 samples.

Results

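The 347 array probes placed on bovine chromosome 9 were examined for methylation in the arcuate nucleus of 8 young heifers. They were all non-control probes that the scanner files assign to chromosome 9, among 10249 non-control probes on 29 chromosomes. They were split into loci wherever neighbouring probe starts lay more than 20000 bp apart, which gave 3 loci. On the Btau_3.1 assembly named in the file headers, the first ran from 47101450 to 47265263 on chromosome 9 and held 326 probes. The second ran from 98628687 to 98640666 and held 20 probes. A lone probe lay at 100074392 to 100074437. The loci are called here the 326-probe locus, the 20-probe locus and the lone probe. Genes are not named, because probes and genes are not matched in the files. For the same reason no gene or cell type list was used, and which probes fall within genes was not analysed here.

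The series held 1 array for each of 4 high-gain heifers (heifers 1 to 4) and 4 low-gain heifers (heifers 5 to 8), all female. Per the labels, both groups were on their schedules between 4.5 and 8.5 months of age, aiming at a daily gain of 1 kg in high-gain heifers and of 0.5 kg in low-gain heifers, and the arcuate nucleus was taken at 8.5 months. The labels give the target and not the gain reached. On each array, 3 µg of methylated DNA, captured with a protein that binds methyl-CpG (enriched, red channel), was hybridised with 3 µg of total DNA of the same heifer (input, green channel). Since the dyes were never exchanged, a dye bias shared by the arrays remains in each level but not in a difference between groups.

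DNA methylation in mammals is mostly carried by cytosines that precede a guanine (CpG). A methyl-CpG binding domain protein holds fragments that carry methylated CpG, so the captured fraction depends both on how many CpG sites a fragment has and on how many of them are methylated. The arcuate nucleus is a small group of neurons and glia at the base of the hypothalamus that senses nutrients and hormones, controls feeding and takes part in the timing of puberty. The arrays average over all cells of the dissected tissue, and no marker of the tissue could be checked on them.

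Values are log2 ratios of the enriched to the input signal, from which the median over all non-control probes of the array was subtracted. A value of 0 is therefore the median probe of that array, and a value of -1 is an enrichment 1 log2 unit below it. It is not an absence of methylation. A probe counted as well above background where the scanner software marked it so in the channel in question. No chromosome 9 spot was saturated (0 spots), and 2 carried an outlier flag, both at the probe at 47171779 to 47171839 in low-gain heifers 7 and 8. Those were left out.

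The arrays differed in how their chromosome 9 profiles resembled each other. Over the chromosome 9 probes, whose values on an array come from 1 hybridisation, Pearson's r between low-gain heifers 6, 7 and 8 was 0.561 to 0.659 per pair. For low-gain heifer 5, r was 0.0319 to 0.155 against those 3 and 0.122 to 0.226 against high-gain heifers. Pairs of high-gain heifers had 0.0483 to 0.209. Against heifers 6, 7 and 8, high-gain heifers 3 and 4 had 0.167 to 0.292, and high-gain heifers 1 and 2 had -0.0585 to 0.0531. Over the other chromosomes heifers 6, 7 and 8 had 0.572 to 0.668 per pair.

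The mean over the 347 probes was -0.20, 0.16, -0.13 and -0.67 in high-gain heifers 1 to 4, against -0.08, -0.55, -0.30 and -0.50 in low-gain heifers 5 to 8. The arrays of high-gain heifer 4 and low-gain heifers 6 to 8 lay below the other 4 in mean and in median, with heifer 4 the lowest of both. The groups overlapped. They averaged -0.21 ± 0.35 in high-gain heifers and -0.36 ± 0.21 in low-gain heifers (SD over 4 arrays per group), a difference of 0.15 (exact permutation test over arrays, two-sided, p = 0.514). The smallest p that 4 against 4 arrays allows is 0.0286. Over 6 measures compared in this way the Benjamini-Hochberg adjusted value was 0.617. Without high-gain heifer 2 the difference was 0.026, without high-gain heifer 4 it was 0.30, without low-gain heifer 5 it was 0.24 and without low-gain heifer 6 it was 0.087. Among the probes with both channels well above background on all arrays it was 0.48 (exact permutation p = 0.171). All arrays lay on 1 slide, so their rows and columns on it were treated as batches. Each row held 2 arrays of each group. Columns 2 and 4 held 1 array of each group, and columns 1 and 3 held arrays of 1 group. The difference was 0.30 among the arrays of slide row 1 and 0.00050 in row 2. It was 0.47 between the arrays of column 2 and -0.12 between those of column 4.

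The probes of all other chromosomes had means between -0.18 and 0.00 on the same arrays. The chromosome 9 mean minus the mean of the other probes was negative on 5 of 8 arrays and averaged -0.18 (SD 0.23, n = 8 arrays). An exact sign-flip permutation test over arrays gave p = 0.0938, two-sided (0.117 after Benjamini-Hochberg adjustment over 10 within-array tests), and the smallest p it allows is 0.00781. With loess within arrays instead of centring alone, this difference was -0.24 (exact p = 0.0313). The middle 50% of chromosome 9 probes spread over 1.63 ± 0.70 log2 units in high-gain heifers and 2.07 ± 0.45 in low-gain heifers (SD over 4 arrays per group; exact permutation p = 0.343). On 7 of 8 arrays this spread was wider than that of the other probes, by 0.26 on average (exact sign-flip permutation p = 0.0156, adjusted 0.0260). The spread was not compared among probes of like length, in which chromosome 9 differed from the rest of the array (below).

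The 326-probe locus carried this pattern. Its mean was -0.21, 0.15, -0.13 and -0.71 in high-gain heifers 1 to 4, against -0.10, -0.58, -0.32 and -0.53 in low-gain heifers 5 to 8. Taken over both groups the locus lay at -0.30 (SE 0.088), below the array median (limma, Benjamini-Hochberg adjusted p = 0.0219 over 97 loci). Of all 97 loci with at least 10 probes, 34.0% were called below the median by the same test, and 15 had a lower level. Neither chromosome 9 locus was called above it (7.22% of all loci). The call was lost without high-gain heifer 3 (adjusted p = 0.0615), low-gain heifer 6 (adjusted p = 0.0638) or low-gain heifer 8 (adjusted p = 0.0559), and with the median over probes in place of the mean (level -0.37, adjusted p = 0.0598). Among the arrays of slide row 1 alone the level was -0.18 (adjusted p = 0.336), and in row 2 it was -0.42 (adjusted p = 0.00211).

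Between the groups, the 326-probe locus averaged -0.22 ± 0.36 in high-gain heifers and -0.38 ± 0.22 in low-gain heifers (SD over 4 arrays per group). The difference was 0.16 (SE 0.18, limma, adjusted p = 0.606), with 0.31 in slide row 1 and 0.0029 in row 2, and the groups overlapped. With the slide column as a block the difference was 0.17 (adjusted p = 0.715), with 0.47 within column 2 and -0.13 within column 4. The blocked difference rests on these columns alone, since the others held 1 group each. It ran between 0.032 without heifer 2 and 0.32 without heifer 4, and was 0.091 without heifer 6 and 0.25 without heifer 5. By this test 0.00% of the 97 loci passed. At an unadjusted p under 0.05 neither chromosome 9 locus was higher (4.12% of all loci) or lower (10.3% of all loci), and in neither were the groups apart (4.12% of all). Both differences were above 0, as were 46.4% of all. The 20-probe locus had means of -0.03, 0.35, -0.15 and -0.13 in high-gain heifers, against 0.22, -0.08, -0.09 and -0.09 in low-gain heifers. High-gain heifer 2 and low-gain heifer 5 were the highest of their groups, and the other 6 arrays lay between -0.15 and -0.03. Its difference was 0.02 (SE 0.14, limma, adjusted p = 0.929) and its level 0.00023 (SE 0.070). The sign of both depended on the processing, and neither had a settled direction.

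Over all their probes, the 326-probe locus lay below the 20-probe locus on 7 of 8 arrays, by 0.30 on average (SD 0.20, n = 8; exact sign-flip permutation test, two-sided, p = 0.0156, adjusted 0.0260). The order differed by the span of the probes, the distance between their start and end. Over probes of span 60 (252 and 10 probes) the 326-probe locus minus the 20-probe locus averaged -0.64 (SD 0.44, n = 8) and was below 0 on 7 of 8 arrays. Over shorter probes (74 and 10 probes) it averaged 0.22 (SD 0.22, n = 8) and was above 0 on 6 of 8 arrays. The lone probe stood at 0.78, 0.52, 0.63 and 0.50 in high-gain heifers, against -0.94, 0.63, 0.26 and 0.42 in low-gain heifers. Low-gain heifer 5 alone was below 0. The lone probe averaged 0.61 ± 0.13 in high-gain heifers and 0.09 ± 0.71 in low-gain heifers (SD over 4 arrays per group). Its enriched signal was well above background on 3 high-gain and 2 low-gain arrays, so its values in the rest are near the scanner's background.

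**Figure D1:**
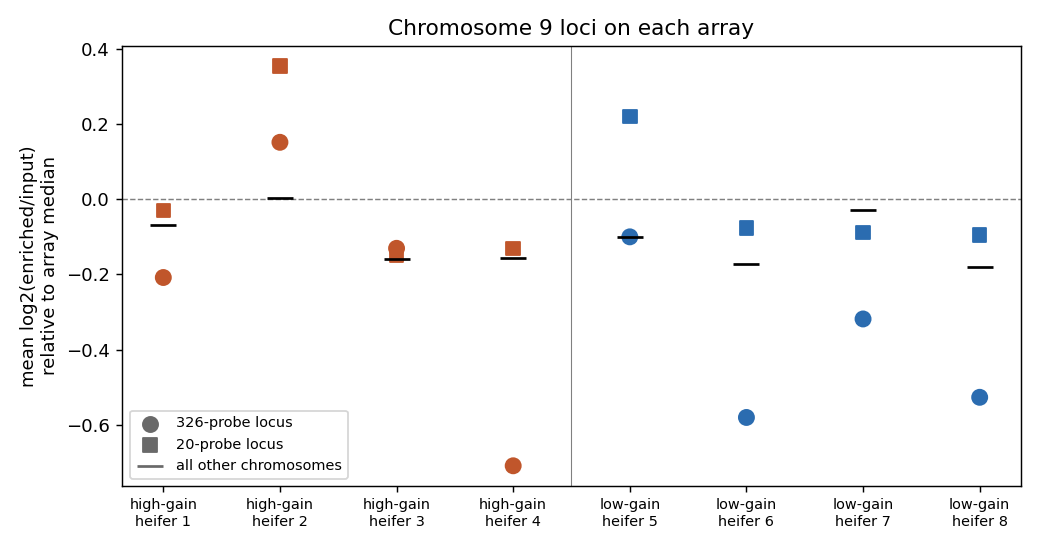
Mean log2 ratio of enriched to input DNA (vertical axis, log2 units relative to the array median) on each of the 8 arrays, with high-gain heifers in orange and low-gain heifers in blue. Circles are the 326-probe locus, squares the 20-probe locus and black bars the mean of all other chromosomes. The 326-probe locus lies below -0.3 in high-gain heifer 4 and low-gain heifers 6, 7 and 8, while the 20-probe locus lies between -0.15 and 0.35.

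The chromosome 9 probes differed from the rest of the array in length. The distance between the start and the end of a probe was 60 bp for 262 of the 347 probes (75.5%), against 34.2% of the 9902 probes elsewhere. The share was 77.3% in the 326-probe locus and 50% in the 20-probe locus. On chromosome 9, probes of span 60 averaged -0.23, 0.20, -0.15 and -0.83 in high-gain heifers 1 to 4, against -0.07, -0.69, -0.44 and -0.66 in low-gain heifers 5 to 8. Shorter chromosome 9 probes averaged -0.09, 0.06, -0.08 and -0.19 in high-gain heifers, against -0.13, -0.10, 0.11 and 0.01 in low-gain heifers. Heifers 4, 6, 7 and 8 were thus low at the span-60 probes and no lower than -0.19 at the shorter ones.

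Probes of span 60 on the other chromosomes were also low in heifers 4, 6, 7 and 8. They averaged -0.15, 0.17, -0.23 and -0.68 in high-gain heifers, against -0.19, -0.64, -0.44 and -0.65 in low-gain heifers. Compared within span 60, chromosome 9 minus the other chromosomes averaged -0.0070 (SD 0.089, n = 8; exact sign-flip permutation p = 0.820). It ran between -0.15 in high-gain heifer 4 and 0.12 in low-gain heifer 5. Among shorter probes this difference averaged -0.071 (SD 0.13, n = 8; exact p = 0.180). The average gap of -0.18 over all probes was therefore larger than either average gap among probes of like span. With span-60 probes alone the level of the 326-probe locus was -0.38 (limma, adjusted p = 0.0626), and with shorter probes alone it was -0.03 (adjusted p = 0.712).

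Span-60 probes minus shorter probes on chromosome 9 differed by -0.31 on average over the 8 arrays (exact sign-flip permutation p = 0.0703). The difference was -0.17 ± 0.33 in high-gain heifers and -0.44 ± 0.34 in low-gain heifers (SD over 4 arrays per group; exact permutation p = 0.371). The part of probe span in the levels was otherwise not tested.

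**Figure D2:**
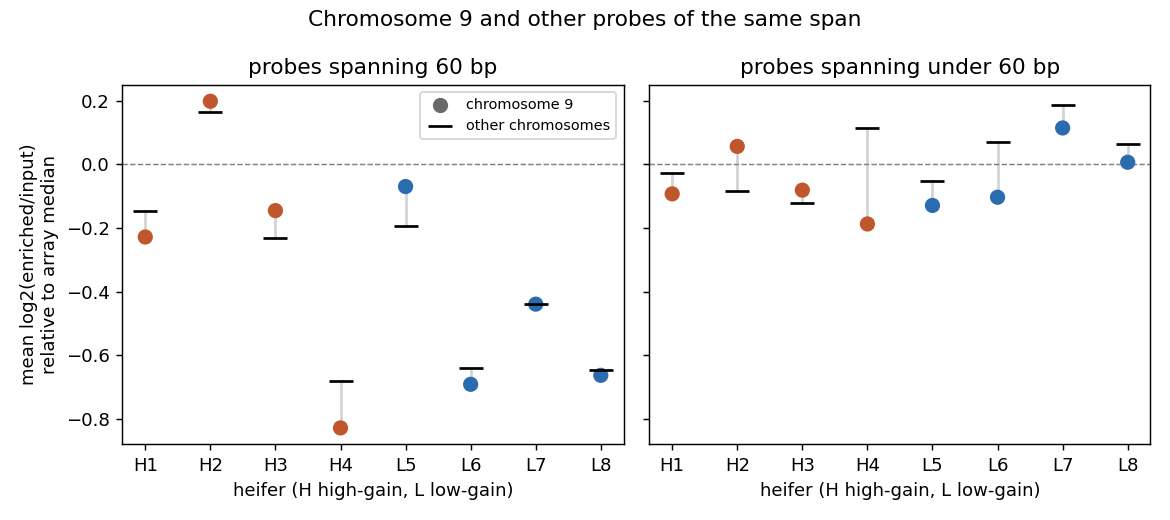
Mean log2 ratio (vertical axis, log2 units relative to the array median) of chromosome 9 probes (coloured circles) and of all other probes (black bars) on each array, for probes spanning 60 bp (left) and fewer (right), with grey lines joining the pair. For span 60, circles and bars lie at most 0.15 apart, and heifers 4, 6, 7 and 8 lie between -0.83 and -0.44. All shorter-probe means lie between -0.19 and 0.19.

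Along the 326-probe locus the enrichment was uneven. Neighbouring probe starts lay a median of 305 bp apart. Windows of 5000 bp counted from the first probe, with at least 3 probes each, gave 32 windows there, of which 25 had a level below the array median. Levels ran between -1.03 and 0.32. By limma, 9 chromosome 9 windows passed below the median (26.5% of 34, against 14.4% of 1185 windows on all chromosomes) and 0 above it (3.63% of all windows). The shares were not compared among windows of like probe span, in which chromosome 9 differed from the rest of the array. All 9 lay in the 326-probe locus, 40.2 to 48.4 kb, 68.3 to 74.6 kb, 125.3 to 130.02 kb, 135 to 139.8 kb, 145 to 155 kb and 161 to 164 kb from its first probe.

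The first 10 kb of the locus lay near the array median and its far end below it. The windows over the first 10 kb had levels of 0.06 (SE 0.14) and 0.09 (SE 0.12). The window after them, from 47111885 to 47116376, had -0.42 (SE 0.17, limma, adjusted p = 0.0843). It was followed by windows at -0.17 (SE 0.12) and -0.09 (SE 0.13). The lowest level, -1.03 (SE 0.18, limma, adjusted p = 0.00217), was in the window from 47169739 to 47171081. There the high-gain heifers averaged -0.11 and the low-gain heifers -1.94, so only the low-gain heifers were far below the array median. Next came a window from 47147294 to 47149873 at -0.83 (SE 0.16, adjusted p = 0.00364), where the enriched signal of all 4 probes exceeded background on every array. Windows from 47236887 to 47241270 (-0.83, SE 0.14, adjusted p = 0.00191) and from 47226793 to 47231469 (-0.78, SE 0.14, adjusted p = 0.00272) held 15 probes each. The highest level was 0.32 (SE 0.14, adjusted p = 0.122), from 47201842 to 47206293, about 100 kb into the locus.

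**Figure D3:**
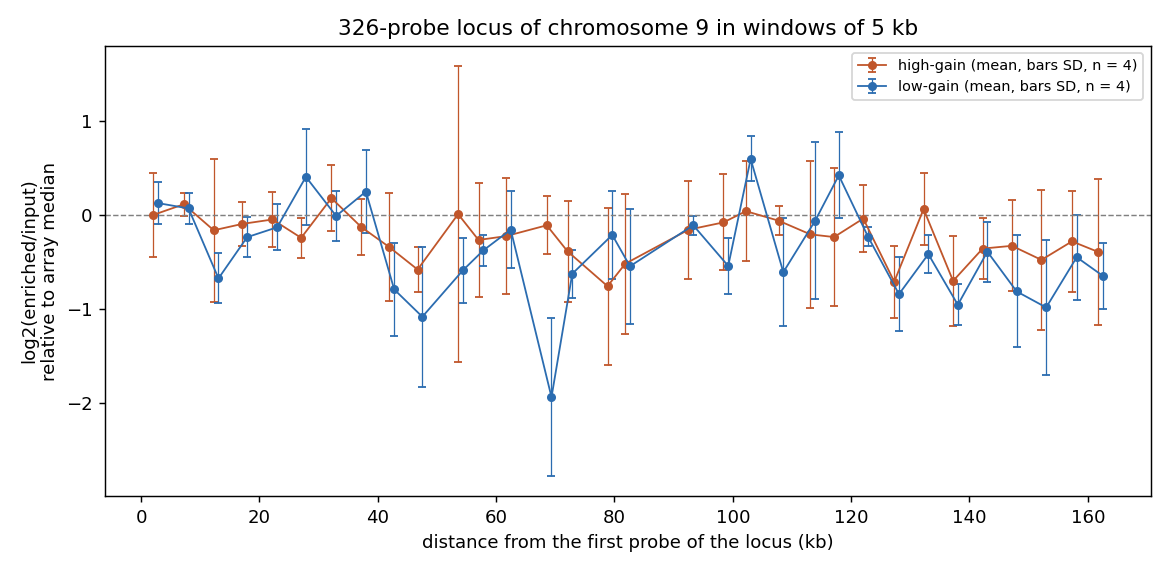
Mean log2 ratio in windows of 5 kb along the 326-probe locus (vertical axis, log2 units relative to the array median) against the distance from its first probe in kb, for high-gain (orange) and low-gain heifers (blue). Points are means over 4 arrays and bars are SD. The groups' bars overlap at most windows, and the 2 means lie farthest apart about 69 kb into the locus, at -0.11 in high-gain heifers and -1.94 in low-gain heifers.

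Regions were stretches of at least 3 probes whose neighbouring starts lay at most 1000 bp apart. There were 19 on chromosome 9, 17 of them in the 326-probe locus, with 3 to 114 probes each. Levels ran between -0.77 and 0.33. In the 326-probe locus 13 of 17 regions had a level below 0. By limma, 3 passed below the array median (15.8% of 19, against 9.58% of 960 regions) and 0 above it (3.33% of all regions). Here too the shares were not compared by probe span. The 3 were the region from 47169739 to 47173097 (-0.77, SE 0.15, adjusted p = 0.00793), the region from 47144918 to 47146037 (-0.73, SE 0.18, adjusted p = 0.0226) and the region from 47220764 to 47258302 (-0.52, SE 0.13, adjusted p = 0.0245). The first kept its call without any 1 heifer. The calls of the other 2 were lost without heifer 3, 4, 6, 7 or 8, with adjusted p between 0.0501 and 0.0822. They were also lost with both channels above background, span-60 probes alone, a robust trended fit and slide row 1 alone. The call of the region at 47144918 was lost as well with the authors' values (level -0.59, adjusted p = 0.0648), background-subtracted medians, normexp (adjusted p = 0.0726) and the filter on input signal (adjusted p = 0.128).

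The region from 47144918 to 47146037 held 4 probes, all of span 60. Its values were -0.51, 0.16, -0.67 and -1.28 in high-gain heifers, against -0.09, -0.72, -1.46 and -1.24 in low-gain heifers. High-gain heifer 2 and low-gain heifer 5 were near 0 and the other 6 arrays below it. The fourth of the lowest regions, from 47174447 to 47176060, did not pass (-0.52, SE 0.26, adjusted p = 0.164). It ran between -1.74 in high-gain heifer 4 and 1.22 in high-gain heifer 3, which are arrays of 1 group.

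The region from 47220764 to 47258302 was the longest, with 114 probes over the far part of the locus. Its values were -0.20, 0.04, -0.46 and -0.82 in high-gain heifers, against -0.31, -0.95, -0.56 and -0.86 in low-gain heifers. Only high-gain heifer 2 was above 0. The region with the next most probes, 59, ran from 47101450 to 47123832 at the start of the locus and stood at -0.13, 0.36, -0.12 and -0.26 in high-gain heifers, against -0.02, -0.31, -0.01 and -0.25 in low-gain heifers.

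These 2 regions were set against each other within each array, a comparison chosen after their values were seen. The far region was the lower on 8 of 8 arrays. Far minus near was -0.07, -0.32, -0.34 and -0.56 in high-gain heifers, against -0.29, -0.64, -0.55 and -0.61 in low-gain heifers. The mean was -0.42 (SD 0.20, n = 8; exact sign-flip permutation test, two-sided, p = 0.00781, the smallest it allows, adjusted 0.0260). Span-60 probes made up 82.5% of the far and 59.3% of the near region. With span-60 probes alone the mean was -0.23 (SD 0.17, n = 8), negative on 7 of 8 arrays (exact p = 0.0156, adjusted 0.0260).

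The highest regions did not pass the test. The region from 47201180 to 47202214 (3 probes) had a level of 0.33 (SE 0.18, limma, adjusted p = 0.209), and the region from 47216398 to 47218107 (5 probes) one of 0.30 (SE 0.23, adjusted p = 0.368). In the second of these only 20% of high-gain and 30% of low-gain enriched spots were well above background. The region from 98636550 to 98638306 in the 20-probe locus had 0.28 (SE 0.12, adjusted p = 0.116), and the region from 47203374 to 47206293 had 0.27 (SE 0.15, adjusted p = 0.219).

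Among single probes, 20 passed below the array median by limma (5.76%, against 4.24% of all probes) and 4 above it (1.15%, against 1.31%). The lowest of the 20 was the probe from 47118591 to 47118651, at -2.00 (adjusted p = 0.0197). The 4 above it began at 47104265 (1.22), 47205931 (0.87), 47233612 (1.03) and 98638246 (1.05), the last in the 20-probe locus.

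No chromosome 9 probe or region differed between the groups after adjustment. Of the probes 0 passed (smallest adjusted p = 0.262 by limma over all probes), as did 0.00% of all 10249. At an unadjusted p under 0.05, 33 probes were higher in high-gain heifers (9.51%, against 7.21% of all probes) and 20 were lower (5.76%, against 5.20%). With 1 heifer left out, 19 (without heifer 6) to 49 (without heifer 5) probes were higher and 10 (without heifer 1) to 32 (without heifer 5) were lower. The counts were also 20 higher without heifer 8, and 11 lower without heifer 8. With the slide column as a block, where differences rest only on the columns that held both groups, 15 were higher and 8 lower. At 22 probes the groups did not overlap (6.34%, against 6.88% of all probes). The difference was above 0 at 190 probes (54.8%, against 44.7% of all), with a median of 0.11 over chromosome 9 and -0.13 over all probes.

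That shift too differed by span. Over the chromosome 9 probes of span 60 the median difference was 0.21, and 58.8% were above 0. Elsewhere on the array span-60 probes had a median difference of 0.26, with 59.5% above 0. Over shorter chromosome 9 probes the median was -0.17 and 42.4% were above 0, against -0.26 and 36.4% elsewhere.

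The 33 probes that were higher at an unadjusted p differed by a median of 1.98 (1.15 to 3.22). Low-gain heifer 5 lay within the range of the high-gain heifers at 17 of them. Among the 33, 3 had no low-gain array with an enriched signal well above background, and 1 had no high-gain array with one. The 20 lower ones differed by a median of -1.59 (-2.99 to -1.004), and heifer 5 lay within the high-gain range at 8 of them. Of the 20, 9 had no low-gain array with an enriched signal well above background, and 9 had no high-gain array with one. Over all 347 chromosome 9 probes, 84 had no such low-gain array and 58 had no such high-gain array. The smallest p was at the probe from 47193239 to 47193299. It stood at -0.12, 0.72, 0.61 and 0.94 in high-gain heifers, against -0.36, -2.66, -2.17 and -2.78 in low-gain heifers. Its difference was 2.53 (SE 0.59, limma, adjusted p = 0.262), and heifer 5 was close to the high-gain values.

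Of the 19 regions 0 passed (0.104% of all 960 did), 1 was higher at an unadjusted p under 0.05 (5.26%, against 6.25% of all) and 0 were lower (8.23% of all). In 0 of 19 were the groups apart (6.25% of all). Differences ran between -0.54 and 0.97, with a median of 0.00080 (-0.02 over all regions), and 11 of 19 were above 0 (57.9%, against 47.9% of all). No run of 3 or more neighbouring probes with the same sign, each at an unadjusted p under 0.05, was found (0 runs).

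The region higher at an unadjusted p was the one from 47169739 to 47173097, 68 kb into the 326-probe locus, which also had the lowest level. Its 8 probes averaged 0.11, -0.35, -0.63 and -0.29 in high-gain heifers, against -1.03, -1.78, -1.62 and -0.60 in low-gain heifers. Low-gain heifer 8 lay within the high-gain range and the other 3 low-gain heifers below it. The difference was 0.97 (SE 0.29, limma, unadjusted p = 0.00590, adjusted p = 0.227), with 1.29 in slide row 1 and 0.65 in row 2. Within slide column 2 it was 1.28 and within column 4 it was 1.48. With the flagged outlier spots kept, the difference over all arrays was 0.88 (limma, adjusted p = 0.226).

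The differences at single probes of this region had opposite signs. The first, from 47169739 to 47169794, stood at -0.34, 1.31, 1.58 and 2.02 in high-gain heifers, against -0.23, -3.18, -1.56 and -2.72 in low-gain heifers. At 47170834 to 47170890 the values were 0.43, -0.20, -1.18 and 0.04 in high-gain heifers, against -2.22, -2.81, -1.37 and -2.09 in low-gain heifers, with no overlap. At 47171964 to 47172024 they were -0.00, -0.49, 0.08 and -0.53 in high-gain heifers, against -1.30, -2.01, -1.40 and -1.98 in low-gain heifers, again with no overlap. The last probe, from 47173037 to 47173097, had the opposite sign, with 0.43, -0.28, -0.65 and -0.86 in high-gain heifers, against 1.35, 0.94, 0.07 and 2.09 in low-gain heifers.

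Of the other 4 probes, the one from 47171021 to 47171081 was lower in all low-gain heifers than in high-gain heifers 1 to 3, but high-gain heifer 4 was at -3.30. The one from 47170591 to 47170648 ran between -3.29 and -1.29 in low-gain heifers 5 to 7 but reached 2.41 in heifer 8. The one from 47171779 to 47171839 rested on 2 low-gain arrays after the outlier flags. The one from 47172567 to 47172627 had 0 low-gain arrays with an enriched signal well above background.

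The first 4 probes of the region form the window from 47169739 to 47171081, a unit chosen after the data were seen. It averaged 0.17, 0.14, -0.36 and -0.40 in high-gain heifers, against -1.39, -3.18, -1.73 and -1.47 in low-gain heifers. Each low-gain heifer lay below each high-gain heifer. The difference was 1.83 (SE 0.35), with an unadjusted p of 7.72e-05 and an adjusted p of 0.0580 by limma over 1185 windows, the smallest of all of them. It was 2.44 among the arrays of slide row 1 and 1.22 in row 2. A fit that blocked on slide column gave 2.33 (adjusted p = 0.0485), with 1.87 within column 2 and 2.79 within column 4. Only these 2 columns held both groups, with 1 array of each, so the 2.33 rests on them alone. By limma without blocking, 0.00% of all windows passed. This was 1 of 34 chromosome 9 windows whose groups did not overlap (2.94%, against 6.24% of all windows).

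The enriched signal alone differed by 1.51 in this window and the input signal alone by -0.31. Over alternative settings the adjusted p ran between 0.00104 and 0.975, the highest with the input signal alone, and it fell under 0.05 in 7 of them. With loess within arrays the difference was 1.19 (adjusted p = 0.306). Of its probes 25.0% had a span of 60. At an unadjusted p under 0.05 it was the 1 chromosome 9 window higher in high-gain heifers (2.94%, against 7.93% of all). The 1 lower window (2.94%, against 5.49% of all) ran from 47126511 to 47131296, with a difference of -0.65 (SE 0.28, adjusted p = 0.318). The difference was above 0 at 24 of 34 chromosome 9 windows (70.6%, against 48.1% of all), shares that were not compared among windows of like probe span.

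**Figure D4:**
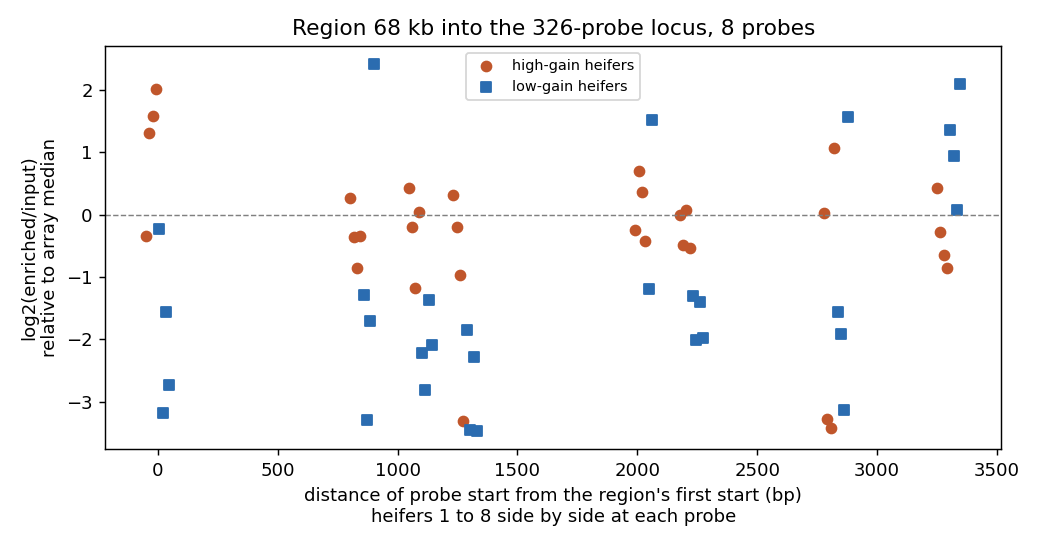
Log2 ratio (vertical axis, log2 units relative to the array median) at each of the 8 probes of the region from 47169739 to 47173097, by the distance of the probe start from that of the first probe in bp, with heifers 1 to 8 side by side. Orange circles are high-gain and blue squares low-gain heifers. The low-gain values lie mostly below the high-gain ones at the first 4 probes and above them at the last, and 2 outlier spots of the fifth probe are left out.

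The next regions by p did not pass either. The region from 47207881 to 47211286 (10 probes) stood at -0.17, -0.02, 0.14 and -0.20 in high-gain heifers, against 0.09, -1.25, -0.43 and -0.86 in low-gain heifers. Its difference was 0.55 (SE 0.29, limma, adjusted p = 0.385), and heifer 5 lay among the high-gain heifers. Without heifer 5 the difference was 0.78 (adjusted p = 0.0742) and without heifer 6 it was 0.34 (adjusted p = 0.677). Within slide column 2 it was 0.41 and within column 4 it was 1.05. For the 114-probe region the difference was 0.31 (SE 0.26, adjusted p = 0.584), with 0.18 without heifer 2.

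In the other direction, the region from 98636550 to 98638306 of the 20-probe locus had 0.08, 0.49, -0.07 and -0.35 in high-gain heifers, against 0.52, 0.29, 0.74 and 0.58 in low-gain heifers. Its difference was -0.49 (SE 0.24, limma, adjusted p = 0.352), with -0.12 in slide row 1, -0.87 in row 2, -0.25 within slide column 2 and -0.64 within column 4, and heifer 2 alone of the high-gain heifers reached the low-gain values. Of its 5 probes, the one from 98637157 to 98637202 had no overlap, at -0.24, 0.14, -0.11 and -0.37 in high-gain heifers, against 0.47, 0.68, 0.94 and 0.49 in low-gain heifers.

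The region from 47203374 to 47206293 (8 probes) had -0.01, 0.66, -0.20 and -0.46 in high-gain heifers, against 1.04, 0.81, 0.07 and 0.25 in low-gain heifers. Its difference was -0.54 (SE 0.30, limma, adjusted p = 0.415), with 0.59 within slide column 2 and -1.27 within column 4. Only 40.6% of its high-gain and 43.8% of its low-gain enriched spots were well above background. The region from 47138125 to 47138862 (3 probes) differed by -0.37 (SE 0.31, adjusted p = 0.585; -0.60 without heifer 3, -0.19 without heifer 1 and -0.17 without heifer 7), with the differences of its first and last probes on opposite sides of 0.

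The share of chromosome 9 probes with an enriched signal set the groups apart, though not after adjustment. Signals were well above background at 67.7%, 74.9%, 68.6% and 68.9% in high-gain heifers 1 to 4, against 63.7%, 60.2%, 64.8% and 43.8% in low-gain heifers 5 to 8. Every high-gain array was above every low-gain array. The means were 70.03 ± 3.30% in high-gain heifers and 58.1 ± 9.76% in low-gain heifers (SD over 4 arrays per group), a difference of 11.9 points. The exact permutation p was 0.0286, two-sided, the smallest that 4 against 4 allows, and 0.171 after adjustment over 6 measures. Without any 1 high-gain heifer the unadjusted value was 0.0857. Without low-gain heifer 8, the lowest, the difference was 7.11 points (exact permutation p = 0.0286). The difference was 9.37 points in slide row 1, 14.4 in row 2, 10.1 within slide column 2 and 8.65 within column 4.

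The probes of all other chromosomes showed the same order, with 74.0 ± 2.27% in high-gain heifers and 62.4 ± 8.54% in low-gain heifers (SD over 4 arrays per group). In the input channel the groups overlapped on chromosome 9, with shares of 81.1 ± 6.21% in high-gain heifers and 79.8 ± 3.11% in low-gain heifers (SD over 4 arrays per group). Within arrays, chromosome 9 had fewer probes above background than the other chromosomes on 8 of 8 arrays, with mean differences of -4.12 points in the enriched channel and -4.45 points in the input channel (exact sign-flip permutation p = 0.00781 for each, adjusted 0.0260). These differences are over probes of all spans. Among span-60 probes, enriched shares were 69.6% on chromosome 9 and 67.3% elsewhere in high-gain heifers, and 56.3% and 53.5% in low-gain heifers. Input shares, in the same order, were 81.0% and 80.6%, and 78.6% and 77.7%. Among shorter probes, enriched shares were 71.5% and 77.4% in high-gain heifers, and 63.8% and 67.1% in low-gain heifers. Their input shares, in the same order, were 81.2% and 88.4%, and 83.5% and 87.3%. Shares within a span were not tested. The enriched signal was well above background on every array at 133 of 347 probes and on none at 49.

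**Figure D5:**
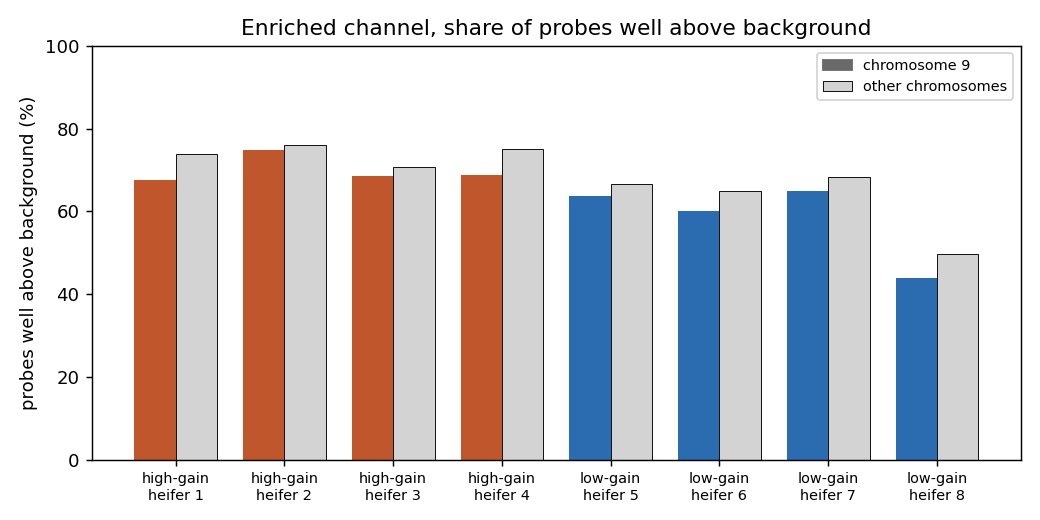
Share of probes well above background in the enriched channel (vertical axis, percent) on each array, for chromosome 9 (orange for high-gain, blue for low-gain heifers) and all other chromosomes (grey). All chromosome 9 shares are 67.7% or more in high-gain heifers and 64.8% or less in low-gain heifers, and the grey bar is the taller on every array.

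Without heifer 5, 14 chromosome 9 probes passed the test between the groups, all higher in high-gain heifers (4.03% of 347, against 3.01% of all probes in that fit), while 0 regions and 0 loci passed.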

How the data were processed

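The members and lists used here were chosen with earlier results of these data known. Per the file headers, the deposited intensity values were processed red and green signals of Agilent Feature Extraction 10.7.1.1 (protocol ChIP_107_Sep09), with background subtraction, spatial detrending and a linear dye normalisation. The authors' table of log2 ratios equalled the ratio of background-subtracted median signals within 0.0001 wherever both were positive. It was not centred. Its array medians were -0.42, 0.00, -0.51 and -1.07 in high-gain heifers, against -0.87, -0.89, -1.52 and -1.82 in low-gain heifers.

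For the 10249 non-control probes the log2 ratio of enriched to input was taken after removal of 28 flagged outlier spots, and the array median was subtracted. A shift shared by all probes is thereby removed. Probes, 960 regions, 97 loci and 1185 windows (added after the data were seen) were fitted with limma 3.58.1 in R 4.3.3 (lmFit, eBayes, two-sided, threshold 0.05), with Benjamini-Hochberg adjustment over all chromosomes. Single values per array had exact permutation tests. Precision is limited by 8 arrays. Batches of DNA capture or labelling are not in the labels and were not tested.

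Named by position were every locus, the 3 regions per direction with the smallest p, the 4 highest and 4 lowest regions, and the windows and probes described. Of the windows and probes, those were chosen after their values were seen. Normexp (offset 50) was run on median signals because mean signals were not used here. Alternatives covered background correction, normalisation, filters on dim probes, probe span, array weights, slide position, each heifer left out, gaps and thresholds. No probe sequence or genome of the assembly was used.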

Additional observations from a re-analysis of the deposited data

Results flagged for a closer look

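Of 46 groups of 4 arrays checked for an array far from the others, 3 held one, and chance gives about 1 in 20. The 20-probe locus stood at 0.22 in low-gain heifer 5, against -0.09 to -0.08 in the other low-gain heifers. The share of chromosome 9 probes well above background in the enriched channel was 74.9% in high-gain heifer 2, against 67.7% to 68.9% in the other high-gain heifers. Span-60 minus shorter probes differed by 0.059 in low-gain heifer 5, against -0.67 to -0.55 in the other low-gain heifers.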

How the results depend on the processing

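No paired analysis was possible because the groups share no replicate number. With 1 channel alone no level was computed, since brightness is not enrichment. The count of probes past the threshold was 0 except 10 with array weights (2.88% of chromosome 9, against 3.24% of all probes in that fit) and 0 to 14 with 1 heifer left out, that of loci 0 except 1 with array weights (the 326-probe locus), and that of regions 0 except 1 with array weights (47169739). Runs numbered 0 except 6 with array weights, 1 with normexp, 1 within slide row 1, 1 within row 2 and 0 to 1 with a heifer left out (1 without heifer 5 or heifer 8). Regions away from the array median numbered 3, but 7 with array weights, 5 with normexp, 10 when split at 500 bp, 1 with span-60 probes, 0 with shorter probes, 1 with a robust trended fit, 2 with background-subtracted medians, with the authors' values or with both channels above background, 4 with loess or with input above background, 1 within slide row 1, and 1 to 5 with a heifer left out (5 without heifer 5). Without heifer 3, 4, 6, 7 or 8 the count was 1 each, against 3 without heifer 1 and 4 without heifer 2.

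The chromosome 9 difference between the groups (0.15) was -0.035 with the input signal alone and -0.048 with shorter probes. It was 0.48 with either filter on dim probes, 0.26 with normexp (exact permutation p = 0.0571), 0.080 scaled to a common spread, 0.092 with quantile normalisation and 0.059 without the brightest 10% of input. Chromosome 9 minus the other chromosomes was -0.24 with loess (exact permutation p = 0.0313), -0.081 in slide row 1 and -0.27 in row 2. Within span 60 it was 0.0058 in slide row 1 and -0.026 to 0.013 with a heifer left out (above 0 without heifer 1 or 4), and the spread of probes differed by 0.018 in row 2. With the input signal alone the difference was -0.028 at the 326-probe locus, -0.12 at the 20-probe locus, -0.31 in the window at 47169739, -0.087 in region 47207881, -0.13 in region 47220764, 0.20 in region 98636550, 0.16 in region 47203374 and 0.49 in region 47138125. With shorter probes it was -0.085 at the 326-probe locus and -0.021 in region 47220764.

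The 20-probe locus differed by -0.028 with background-subtracted medians (and the authors' values, -0.028), -0.11 with the enriched signal alone, -0.13 with the median over probes, -0.13 with span-60 probes, -0.048 in slide row 2, -0.086 without the brightest 10% of input, and -0.093 to 0.098 with a heifer left out. Its level was -0.018 with array weights, -0.080 with background-subtracted medians or the authors' values, -0.065 with both channels above background, -0.0098 when centred on other chromosomes, -0.34 with input above background (limma, adjusted p = 0.00765), -0.029 with loess, -0.058 with normexp, -0.25 with shorter probes (adjusted p = 0.0458), -0.12 in slide row 2 and -0.057 to 0.027 with a heifer left out.

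Region 47138125 differed by 0.037 with background-subtracted medians (0.037 with the authors' values), 0.40 with either filter on dim probes, 0.12 with the enriched signal alone and 0.36 with normexp. Region 47203374 differed by 0.68 with both channels above background and 0.043 with normexp, and its level was -0.031 with background-subtracted medians or the authors' values, -0.077 with shorter probes and -0.086 in slide row 2. Levels were -0.042 with normexp in region 47201180, -0.023 in slide row 2 in region 47216398, and -0.11 with input above background in region 98636550. The cause was not tested for any of these.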

Other observations

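Chromosome 9 probes that neighbour each other had related levels but hardly related differences between the groups. For starts at most 300 bp apart, Pearson's r across probes was 0.327 for the level over both groups and 0.0719 for the difference (162 pairs, which share arrays and, in part, probes). For starts 300 to 1000 bp apart it was 0.169 and 0.0677 (154 pairs). Across the 347 probes, the level correlated with the mean log2 input signal at -0.401, and the input signal is itself the lower part of the ratio. These are descriptions across probes, which are not replicates.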
